A study of Bos taurus with 8 samples.

Results

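The cells described here are the 96 cells, of 286 in all, that the authors' cell table classes as LB EPI (45 cells) or MB ICM (51 cells). They were picked by that class alone, with no measured value, and each class was averaged within each library that held at least 3 of its cells. EPI and ICM are the field's short forms of epiblast and inner cell mass. MB and LB are the cell table's own abbreviations. The LB EPI cells came from wildtype bovine embryos at day 9 after fertilization and the MB ICM cells from wildtype bovine embryos at day 8. No allele, transgene or treatment separates the groups. The trophectoderm cells of the same days, LB TE (31 cells, day 9) and MB TE (37 cells, day 8), served to set the change of the inner cells beside that of the outer layer. Neither embryo nor sire nor sex is labelled for a cell. The library therefore served as the replicate, and the p-values reflect only the spread among library averages, taken over all 7 classes. Part of that spread may be technical or come from averages of few cells.

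As background, the inner cell mass is the group of cells inside the blastocyst, and the trophectoderm is the outer layer that later forms the placenta. The inner cell mass separates into the epiblast, which forms the embryo proper, and the primitive endoderm, called hypoblast in cattle, which lines the cavity and forms the yolk sac. In mouse embryos the epiblast keeps NANOG, while FGF signalling through ERK favours GATA6 and the hypoblast. The epiblast then leaves the naive state of pluripotency, and de novo DNA methyltransferases rise on that path.

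Polyadenylated RNA of single cells was reverse transcribed, amplified with a barcode per cell and pooled into libraries. LB EPI averages came from replicates 2 (11 cells), 3 (9 cells) and 5 (24 cells), and MB ICM averages from replicates 1 (24 cells), 2 (21 cells) and 5 (5 cells). Replicates 2 and 5 therefore held both classes. Lone cells, 1 LB EPI cell of replicate 1 and 1 MB ICM cell of replicate 3, entered no average. The recovered depth had a median of 196981 reads per cell in LB EPI (15884 to 481658) and 132481 in MB ICM (2633 to 364384), with medians of 8260 and 7322 detected genes. The MB ICM cell with 2633 reads was 1 of the 5 in replicate 5. Each cell weighs equally in an average, so few reads of that cell can shift the MB ICM value of replicate 5. All 48 cell barcodes occurred in each of the 6 libraries. Values are printed as CPM, a cell's assigned reads scaled to a total of 1000000, in the order of the replicates just given. They are not corrected for gene length, so levels are compared within a gene only. Log2 changes are LB EPI minus MB ICM on log2(CPM + 10), which understates the change of genes with low values. SE is the standard error of such a change, and every adjusted p is from limma with Benjamini-Hochberg adjustment over all genes tested.

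The class names matched their defining markers in part. In both classes the trophectoderm regulator CDX2 was near 0, at 2.21, 0 and 0.887 CPM in LB EPI and 4.31, 2.900 and 1.15 CPM in MB ICM, against 44.9 and 35.3 CPM in LB TE and 72.9, 54.4 and 62.9 CPM in MB TE. The epiblast and inner cell factor SOX2 was detected in every average of both classes. MB ICM also carried hypoblast genes, with GATA6 at 311, 274 and 145 CPM and PDGFRA at 123, 69.5 and 69.7 CPM. The authors did not divide the day 8 inner cells, while they split those of day 9 into LB EPI and LB PE, so the comparison sets a divided class against an undivided one. The sources used here do not say how cells were put in classes. A lineage marker that separates the classes may have been used to define them, so it is given as a description and adds no independent support.

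Of 12540 genes tested, 640 passed an adjusted p of 0.05 (5.1%). LB EPI was higher for 413 genes (3.29%) and lower for 227 (1.81%), so 64.5% of the called genes were higher, and the median change over all genes tested was 0.0187. The shares of 3.29% and 1.81% are the background for the counts of called genes per list below. For 639 of the 640 called genes the direction was the same within both libraries that held both classes. The averages of these libraries also entered the fit that called the genes, so this agreement adds no independent support. The library averages of LB EPI and MB ICM did not overlap for 624 of the called genes, beside 2542 of all genes tested (20.3%). Across genes, the averages correlated at 0.915 to 0.943 among LB EPI (Pearson's r over 12540 genes, which are not independent replicates), 0.880 to 0.935 among MB ICM and 0.838 to 0.916 between the classes. The counts moved with the libraries used, and the cause was not tested. Leaving out replicate 4 or 6, which held neither class, gave 381 or 386 higher genes and 203 or 218 lower genes. Leaving out replicate 1, 2, 3 or 5 gave 232, 225, 229 or 196 higher genes and 138, 100, 112 or 119 lower genes, and leaving out only the 5-cell MB ICM average of replicate 5 gave 275 and 189. The balance of directions moved with the scale and with the cells averaged: 51.9% of called genes were higher with limma-voom on summed reads, which shifted the median of all genes to -0.11, 83.9% with the mean of log2 values over cells, and 84.3% with LB EPI and LB PE cells averaged together.

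The genes with the largest rises were led by TDGF1, the co-receptor of Nodal and GDF3 also called CRIPTO. It was at 727, 759 and 729 CPM in LB EPI, against 4.01, 54.3 and 41.7 CPM in MB ICM, a log2 change of 4.23 (SE 0.49, adjusted p = 6.66e-05). Every LB EPI average was far above every MB ICM average. LRRC3, a leucine-rich repeat membrane protein, stood at 180.5, 404 and 203 CPM in LB EPI and 1.52, 2.401 and 5.53 CPM in MB ICM (4.21, SE 0.34, adjusted p = 5.26e-07). UPP1, uridine phosphorylase of pyrimidine salvage, stood at 588, 878 and 1153 CPM in LB EPI and 6.74, 60.8 and 155 CPM in MB ICM (3.69, SE 0.64, adjusted p = 0.00341). Neither gene's groups overlapped. ERAS, a constitutively active Ras of mouse embryonic stem cells, was at 224, 289 and 221 CPM in LB EPI and 2.16, 15.7 and 23.5 CPM in MB ICM (3.43, SE 0.39, adjusted p = 2.57e-05). ICOSLG, the ligand of a T cell costimulatory receptor, was at 221, 225 and 192 CPM in LB EPI and 0.505, 25.9 and 11.8 CPM in MB ICM (3.41, adjusted p = 2.53e-05). The forkhead factor FOXO1 was at 124, 279 and 148 CPM in LB EPI and 7.38, 7.09 and 14.1 CPM in MB ICM (3.15, adjusted p = 0.00123).

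Among the other rises of this size, AP1S2, a clathrin adaptor subunit, was at 805, 245 and 381 CPM in LB EPI and 30.7, 83.4 and 45.3 CPM in MB ICM (2.87, adjusted p = 0.000284). NNAT, the imprinted gene neuronatin, was at 158, 858 and 700.3 CPM in LB EPI and 16.4, 22.02 and 181 CPM in MB ICM (2.87, adjusted p = 0.0234). Its groups overlapped only in that the MB ICM average of replicate 5 lay above the lowest of LB EPI. Across MB ICM cells NNAT had a median of 6.2 CPM and a highest value of 759.6 CPM. The replicate 5 level, and with it the overlap, may therefore lean on a cell with few reads. Without replicate 3 NNAT no longer passed (adjusted p = 0.103). PPP2R2B, a regulatory subunit of protein phosphatase 2A, rose by 2.81, the chloride channel family member CLIC6 by 2.78, and HERC5, the ligase of the ubiquitin-like modifier ISG15, by 2.74. The membrane peptidase MME rose by 2.66, the adhesion receptor ADGRV1 by 2.61 and SSLP1 by 2.51. The groups of these 5 genes and of SSLP1 did not overlap. SSLP1 lost its call without replicate 2 (adjusted p = 0.0536) or 3 (0.092). TDGF1, LRRC3, UPP1, ERAS, ICOSLG, FOXO1, AP1S2, PPP2R2B, CLIC6, HERC5, MME, ADGRV1 and NANOG stayed called under each of the 21 alternatives run.

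**Figure D1:**
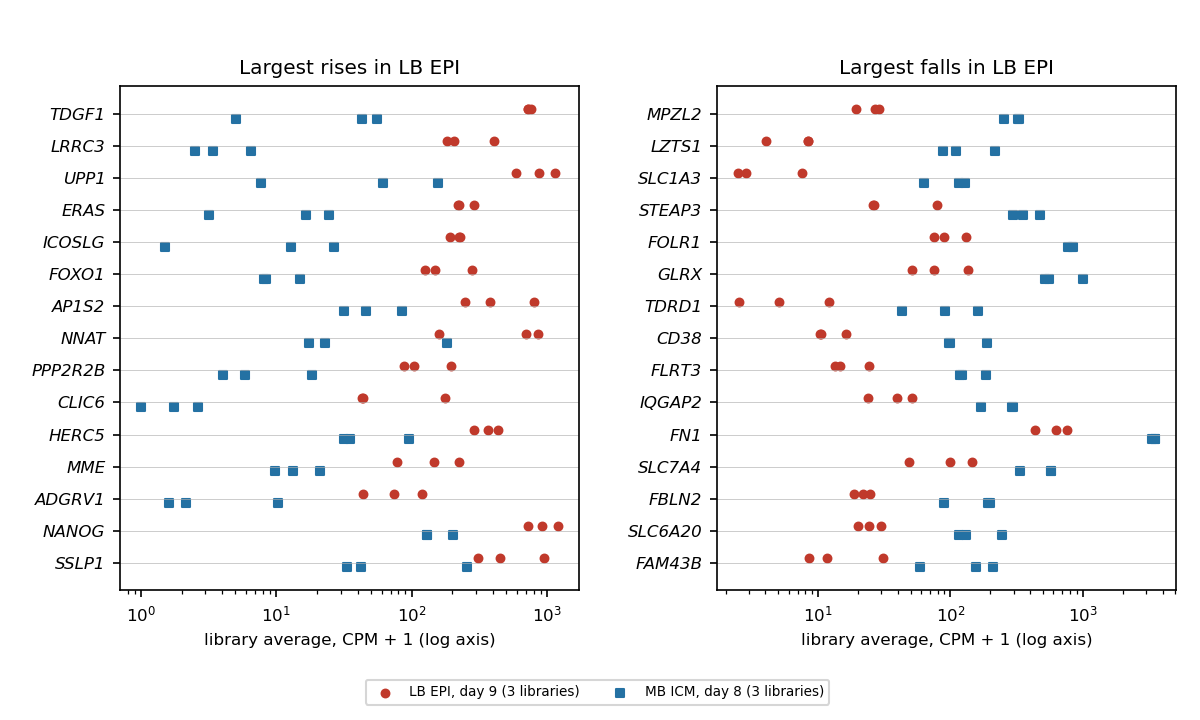
Library averages as CPM + 1 on a log axis for the 15 genes with the largest rises and the 15 with the largest falls among called genes with a symbol. Circles are the 3 LB EPI averages (day 9) and squares below them the 3 MB ICM averages (day 8). For TDGF1 the LB EPI circles lie between 727 and 759 CPM, and the MB ICM squares between 4.01 and 54.3 CPM.

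Among the largest falls were surface and transport proteins. MPZL2, an epithelial adhesion protein, was at 27.7, 18.4 and 25.7 CPM in LB EPI, against 329, 252 and 321 CPM in MB ICM, a log2 change of -3.19 (SE 0.28, adjusted p = 1.32e-06). FOLR1, the folate receptor alpha, was at 88.3, 74.4 and 129.6 CPM in LB EPI and 827, 835 and 768 CPM in MB ICM (-2.89, SE 0.29, adjusted p = 6.13e-06). SLC1A3, a glutamate and aspartate transporter, was at 1.87, 1.47 and 6.58 CPM in LB EPI and 116, 128 and 61.6 CPM in MB ICM (-3.01, SE 0.33, adjusted p = 2.18e-05). In these 3 genes each LB EPI average lay far below each MB ICM average. STEAP3, an endosomal ferrireductase, fell to 78.2, 25.2 and 25.5 CPM in LB EPI, against 349, 475 and 295 CPM in MB ICM (-2.97, adjusted p = 0.000385). GLRX, the glutathione-dependent reductase glutaredoxin, fell to 135, 50.4 and 74.4 CPM in LB EPI, against 995, 518 and 557 CPM in MB ICM (-2.80, adjusted p = 3.85e-05). The largest MB ICM value of GLRX was in replicate 1 and the smallest in replicate 2, both above all LB EPI values.

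The remaining falls of this size ran from -3.01 for LZTS1 to -2.36 for FAM43B. LZTS1, a leucine zipper protein, was at 7.38, 7.35 and 3.05 CPM in LB EPI and 86.2, 215 and 109.8 CPM in MB ICM, and lost its call without replicate 2 (adjusted p = 0.0658) or 5 (0.104). TDRD1, a tudor protein of the piRNA pathway, fell by 2.61, CD38, an NAD-cleaving ectoenzyme, by 2.56 and FLRT3, a leucine-rich membrane protein, by 2.53. The scaffold IQGAP2 fell by 2.48, the extracellular matrix protein FBLN2 by 2.41, the amino acid transporter family member SLC7A4 by 2.41 and the proline transporter SLC6A20 by 2.37. No LB EPI average of these genes reached the lowest MB ICM average. GLRX, STEAP3 and SLC7A4 stayed called under all 21 alternatives run. With LB EPI and LB PE averaged together, MPZL2 (adjusted p = 0.182), FOLR1 (0.164) and SLC1A3 (0.358) did not pass.

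Among the regulators of pluripotency, NANOG stood apart from SOX2 and POU5F1. NANOG, a homeobox factor of the epiblast, was at 718, 915 and 1211 CPM in LB EPI, against 129, 129.5 and 203 CPM in MB ICM (2.55, SE 0.34, adjusted p = 0.000144). SOX2 was at 222, 217 and 165 CPM in LB EPI and 167, 72.4 and 84.5 CPM in MB ICM. Its change of 0.94 (SE 0.47) did not pass (adjusted p = 0.324), and the groups overlapped in that the highest MB ICM average lay above the lowest of LB EPI. POU5F1, the factor OCT4, was at 370.1, 309 and 221 CPM in LB EPI and 174, 224 and 327 CPM in MB ICM (0.32, SE 0.30, adjusted p = 0.682). Within replicate 2 POU5F1 differed by 0.70 and within replicate 5 by -0.55, in opposite directions. The 5 MB ICM cells of replicate 5 were at 104, 66.1, 132, 1139 and 194 CPM. The cell at 1139 CPM was the shallowest, with 2633 reads, so the direction in replicate 5 leans on few reads.

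Of 28 tested pluripotency genes (34 on the list), 6 were higher and 2 lower, with a median change of 0.54 beside 0.0187 for all genes tested. The higher genes were TDGF1, ERAS, NANOG, PHC1, GDF3 and KLF17. GDF3, a TGF-beta family ligand, was at 154, 152 and 150.1 CPM in LB EPI and 12.97, 36.8 and 73.6 CPM in MB ICM (1.78, adjusted p = 0.00499). PHC1, a Polycomb subunit, rose by 1.80, and the Kruppel-like factor KLF17 by 1.29. DPPA3, the oocyte and germline factor STELLA, fell to 43.4, 12.1 and 44.4 CPM in LB EPI, against 159, 234 and 183 CPM in MB ICM (-2.20, SE 0.35, adjusted p = 0.000717). TBX3, a T-box factor of mouse naive cells, averaged 45.2 ± 4.41 CPM in LB EPI and 219.6 ± 110.1 CPM in MB ICM (SD, n = 3 each; -1.95, adjusted p = 0.00137). Other list members known from naive mouse stem cells did not pass: KLF4 changed by -0.57, KLF2 by -0.41, ESRRB by -0.34, TFCP2L1 by -0.23, KLF5 by -0.13 and ZFP42 by 0.15 (adjusted p from 0.506 to 0.953). GDF3 (adjusted p = 0.0679), TBX3 (0.051) and KLF17 (0.178) lost their calls without replicate 2, PHC1 without replicate 1 (0.0545), and KLF17 also without 3 (0.0587) or 5 (0.0515).

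Genes of the formative and primed states, through which mouse epiblast leaves the naive state, were higher in 8 of 26 tested cases (30 on the list). None was lower at adjusted p under 0.05, with 1 lower at an unadjusted p under 0.05. By limma-voom 1 was called lower. The same count was lower with a pseudocount of 50, a minimum of 50 CPM, median-of-ratios scaling, only the classes compared, or cells of at least 50000 reads. The list median was 0.52. DNMT3B, a de novo DNA methyltransferase, was at 849, 1463 and 1074 CPM in LB EPI, against 65.7, 153 and 593 CPM in MB ICM (2.36, SE 0.51, adjusted p = 0.0136). Its MB ICM averages differed most, with replicate 5 nearest to LB EPI. That average held 5 cells, the shallowest with 2633 reads. Across MB ICM cells DNMT3B had a median of 93.0 CPM and a highest value of 2279 CPM, so the replicate 5 level may lean on 1 cell. Leaving out replicate 2 (adjusted p = 0.0936) or 3 (0.0747) ended its call. TCF7L1, a repressor of WNT targets, was at 221, 241 and 189 CPM in LB EPI and 45.00, 40.04 and 114 CPM in MB ICM (1.62, adjusted p = 0.00407). DUSP6, a phosphatase induced by and acting on ERK, was at 132, 78.1 and 153 CPM in LB EPI and 35.4, 43.03 and 25.6 CPM in MB ICM (1.61, adjusted p = 0.0034). Neither gene's groups overlapped, but TCF7L1 lost its call without replicate 2 (adjusted p = 0.114) and DUSP6 without replicate 5 (0.07). The anti-adhesive sialomucin PODXL rose by 1.51, the retinoic acid carrier CRABP1 by 1.49, SOX11 by 1.43, the WNT antagonist SFRP1 by 1.34 and MYCN by 1.22. Each of these 5 lost its call without at least 1 library, with adjusted p up to 0.292 for SOX11 without replicate 2. OTX2, a homeobox factor of the primed mouse epiblast, was at 72.4, 59.00 and 107 CPM in LB EPI and 249, 194 and 177 CPM in MB ICM (-1.24, adjusted p = 0.0608), without overlap and short of the threshold.

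Hypoblast genes were lower in 11 of 34 tested cases (39 on the list) and higher in none at adjusted p under 0.05, with 2 higher at an unadjusted p under 0.05 and 2 higher calls by limma-voom. Their median change was -0.57. FN1, the matrix protein fibronectin, was at 756, 434 and 624 CPM in LB EPI, against 3318, 3479.5 and 3516 CPM in MB ICM (-2.47, SE 0.25, adjusted p = 6.33e-06). GATA6, a zinc finger factor that acts early in the mouse hypoblast, was at 27.3, 41.99 and 57.9 CPM in LB EPI and 311, 274 and 145 CPM in MB ICM (-2.23, SE 0.33, adjusted p = 0.00036). PDGFRA, a receptor tyrosine kinase that marks the hypoblast, was at 11.7, 24.3 and 23.7 CPM in LB EPI and 123, 69.5 and 69.7 CPM in MB ICM (-1.65, SE 0.32, adjusted p = 0.00338). All 3 genes had LB EPI averages below every MB ICM average, and PDGFRA lost its call without replicate 2 (adjusted p = 0.0556). The WNT enhancer RSPO3 was at 8.01, 3.73 and 9.18 CPM in LB EPI and 23.4, 84.3 and 45.3 CPM in MB ICM (-1.75, adjusted p = 0.00311). COL4A1, a basement membrane collagen, fell by 2.02, and KLB, a co-receptor of endocrine FGFs, by 1.14. FLRT3, FOLR1, SLC1A3 and MPZL2, given above, were also among the 11 genes.

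Not every hypoblast gene was low in the epiblast. HNF4A, a nuclear receptor of endoderm, was at 144, 252 and 179 CPM in LB EPI and 109, 206 and 134 CPM in MB ICM (0.30, SE 0.30, adjusted p = 0.692), with overlapping groups. GATA4 was near 0 in both, at 0.813, 3.02 and 4.15 CPM in LB EPI and 3.099, 4.67 and 4.41 CPM in MB ICM. SPARC, a secreted matrix glycoprotein, averaged 692 ± 236 CPM in LB EPI and 384 ± 81.6 CPM in MB ICM (SD, n = 3 each; 0.93, adjusted p = 0.153). SOX17, FOXA2 and CUBN were in the table and did not reach the 10 CPM needed for testing. When LB EPI and LB PE cells were averaged together, no list member passed in either direction (limma, adjusted p under 0.05; 7 higher and 6 lower at an unadjusted p under 0.05) and the list median was 0.05. KLB and RSPO3 then lay above 0, at 0.57 and 0.64. RSPO3 lost its call without replicate 2 (adjusted p = 0.0732), COL4A1 without 2 (0.149) or 5 (0.0858), and KLB without 2 (0.35), 3 (0.0848) or 5 (0.204).

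**Figure D2:**
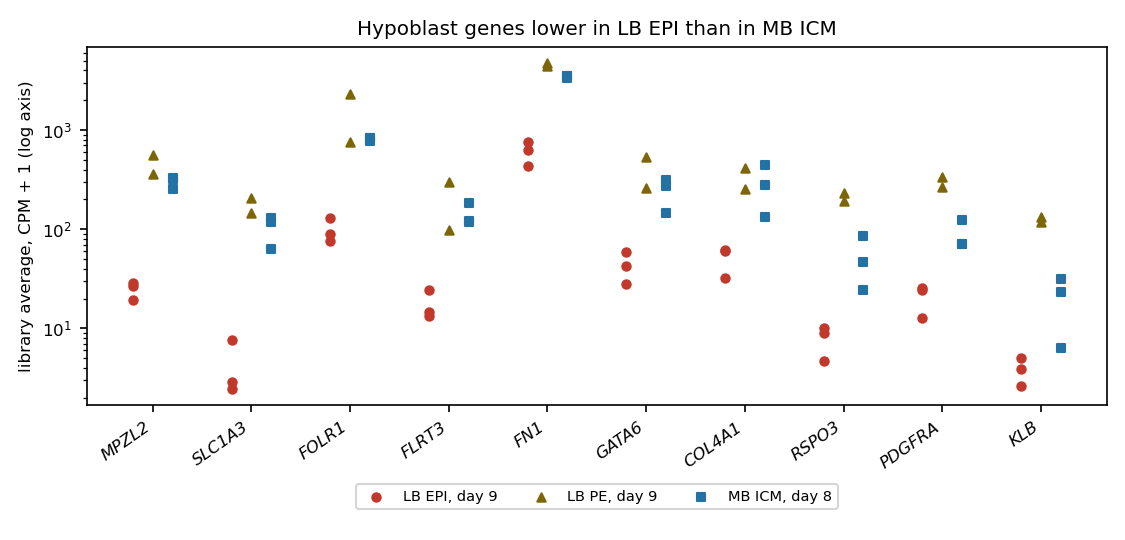
Library averages as CPM + 1 on a log axis for 10 of the 11 hypoblast genes lower in LB EPI than in MB ICM, ordered by log2 change. Circles are LB EPI (day 9, 3 libraries), triangles LB PE (day 9, 2 libraries) and squares MB ICM (day 8, 3 libraries). FN1 was at 434 to 756 CPM in LB EPI and 3318 to 3516 CPM in MB ICM, beside 4472 and 4714 CPM in the day 9 hypoblast class.

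Of 32 tested trophectoderm genes (36 on the list), 3 were lower, beside 1.81% of all genes tested, and none was higher at adjusted p under 0.05 (limma-voom also gave 0 higher, and 1 was higher at an unadjusted p under 0.05), with a median change of -0.09. GATA3, a zinc finger factor of trophectoderm, was at 49.5, 39.5 and 35.6 CPM in LB EPI, against 179, 116 and 138 CPM in MB ICM (-1.57, SE 0.25, adjusted p = 0.000745). S100A10, a small calcium-binding family protein that pairs with annexin, fell by 1.37, and the water and glycerol channel AQP3 by 1.51. AQP3 lost its call without replicate 1 (adjusted p = 0.167), 2 (0.0749), 3 (0.11) or 4 (0.0514). The keratin KRT8 was at 769, 1427 and 823 CPM in LB EPI and 1179.8, 1138 and 771 CPM in MB ICM (-0.15, adjusted p = 0.878), beside 26444 and 20166 CPM in LB TE and 15477, 22754 and 27017 CPM in MB TE. Summed over the 35 list members in the table, trophectoderm genes came to 2922 to 5085 CPM in LB EPI and 4374 to 4794 CPM in MB ICM. Their part in the differences between the classes was not tested.

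**Figure D3:**
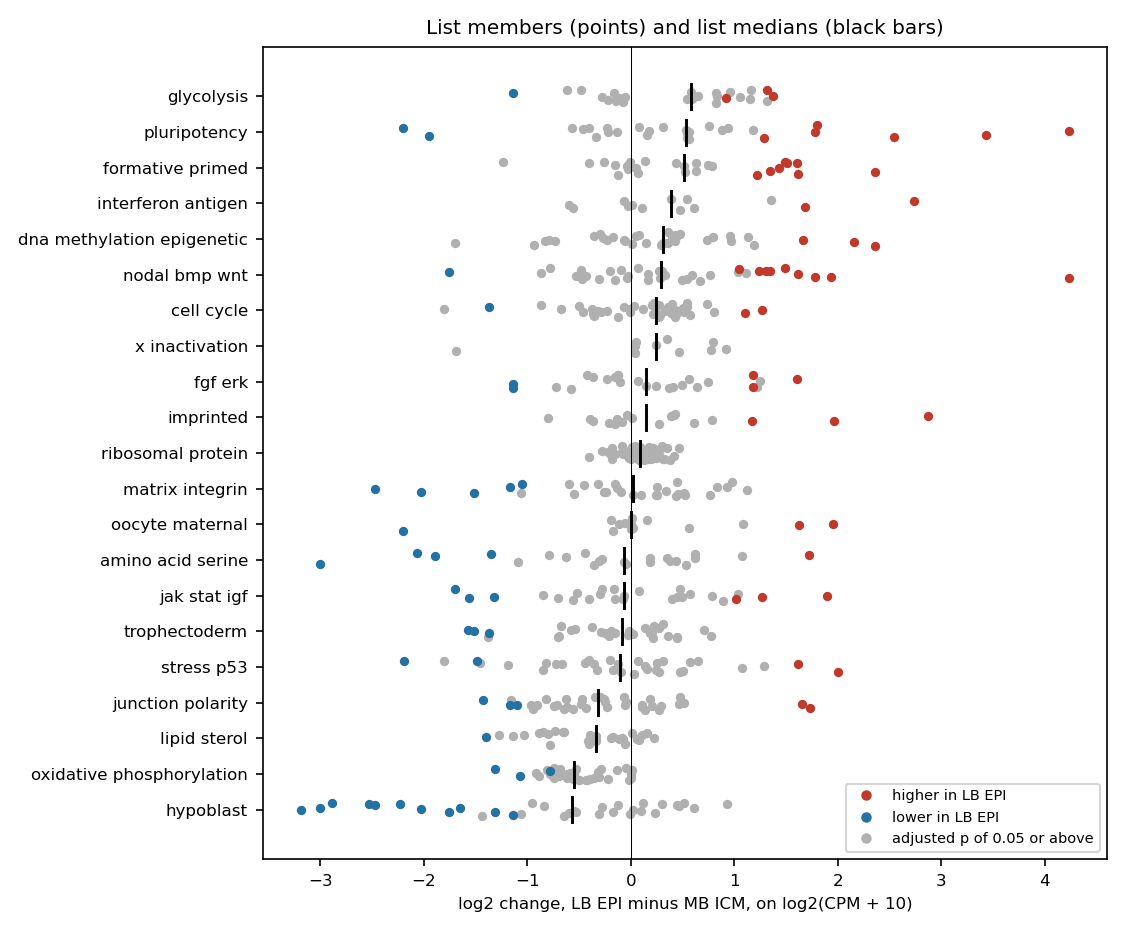
Log2 changes, LB EPI minus MB ICM on log2(CPM + 10), of the tested members of each list (points) with the list median (black bar). Colours mark genes past an adjusted p of 0.05. Hypoblast genes reach from 0.93 for SPARC down to -3.19 for MPZL2, and 35 of 37 oxidative phosphorylation genes lie below 0.

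Signalling genes of the Nodal, BMP and WNT pathways were higher in 9 and lower in 1 of 36 tested cases (44 on the list), with a median change of 0.29. NODAL itself was at 0, 2.77 and 14.8 CPM in LB EPI and 0, 0 and 0.769 CPM in MB ICM (0.55, adjusted p = 0.306), too low to read a difference. Ligands and co-receptors that rose were TDGF1 and GDF3, given above, and BMP4, a ligand that averaged 39.4 ± 26.7 CPM in LB EPI and 4.86 ± 2.68 CPM in MB ICM (SD, n = 3 each; 1.49, adjusted p = 0.0333). Among receptors, the type I receptors BMPR1A (1.30) and ACVR1B (1.24) rose, while BMPR2 (1.11, adjusted p = 0.105) and ACVR2A (1.03, adjusted p = 0.0923) did not pass. SMAD4, the shared partner of activated SMADs, rose by 1.05, and ID1, a target of BMP signalling, by 1.94. The antagonist SFRP1 and TCF7L1 rose, and RSPO3 fell. BMP4 lost its call without replicate 1 (adjusted p = 0.107), 2 (0.168) or 3 (0.0564), ACVR1B without 1 (0.0678) or 2 (0.159), BMPR1A without 2 (0.092), 3 (0.0902) or 5 (0.0902), SMAD4 without 1 (0.145), 2 (0.18), 3 (0.0911) or 5 (0.0872), and ID1 without 3 (0.0831).

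FGF and ERK genes had a median of 0.15 that was -0.03 with limma-voom. Of 25 tested (30 on the list), 3 were higher and 2 lower, beside 3.29% and 1.81% of all genes tested. FGF2, a ligand, was at 10.9, 9.92 and 23.7 CPM in LB EPI and 0, 2.31 and 0 CPM in MB ICM (1.18, adjusted p = 0.00446). FGF4, the ligand made by the mouse epiblast, was at 1.42, 11.5 and 3.67 CPM in LB EPI and had no read in any MB ICM average. Its low level did not pass the test (adjusted p = 0.187). In single cells FGF4 had a read in 13 of 45 LB EPI cells and in 0 of 51 MB ICM cells, which allows a share of up to 5.88% for counting error alone, and in 2 of 31 LB TE cells. Cells of a library are not independent, so this limit covers no spread between libraries. Thinned to 20000 reads per cell, 6 of 43 LB EPI, 0 of 47 MB ICM and 0 of 31 LB TE cells had an FGF4 read. The median depths of these classes were 196981, 132481 and 196521 reads. The receptor FGFR4 fell by 1.14, and FGFR1 changed by 1.22 (adjusted p = 0.128). The ERK pathway inhibitor SPRED1 rose by 1.18, beside DUSP6. FGFR4 lost its call without replicate 1 (adjusted p = 0.102), 2 (0.293), 3 (0.0731) or 5 (0.0561), SPRED1 without 1 (0.109), 2 (0.0608), 3 (0.074) or 5 (0.187), and FGF2 without 5 (0.145).

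JAK, STAT and IGF genes moved both ways, with a median of -0.07. Of 26 tested (29 on the list), 3 were higher and 3 lower, beside 3.29% and 1.81% of all genes tested. JAK1, a kinase of cytokine receptors, was at 74.4, 201 and 129.7 CPM in LB EPI, against 25.3, 17.4 and 42.3 CPM in MB ICM (1.89, adjusted p = 0.00226). IL6R, the interleukin 6 receptor, was at 9.51, 27.8 and 19.6 CPM in LB EPI and 128, 49.3 and 67.9 CPM in MB ICM (-1.56, adjusted p = 0.0111). STAT3, the factor that receptor complex activates, was at 4.97, 11.8 and 9.16 CPM in LB EPI and 52.6, 25.9 and 37.7 CPM in MB ICM (-1.32, adjusted p = 0.0251). The kinase stood higher and the receptor and factor lower in LB EPI. The IGF-binding proteins split, with IGFBP3 higher by 1.27 and IGFBP4 lower by 1.70, and the heparin-binding growth factor MDK rose by 1.02. MDK lost its call when any of the 6 libraries was left out (adjusted p from 0.0501 to 0.209), IGFBP3 without 1, 2, 3 or 4 (0.0507 to 0.221), IL6R without 1, 2 or 5 (0.0581 to 0.0909), STAT3 without 1, 2 or 5 (0.0967 to 0.128) and IGFBP4 without 2 (0.0536).

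Enzymes of DNA methylation and chromatin were higher in 3 of 35 tested cases at adjusted p under 0.05, beside 3.29% of all genes tested. None was lower at adjusted p under 0.05, beside 1.81%, with 5 lower at an unadjusted p under 0.05 and 1 lower call by limma-voom. The list median was 0.31. DNMT3A, the other de novo methyltransferase, was at 524, 1366 and 631 CPM in LB EPI and 163, 227 and 275 CPM in MB ICM (1.66, SE 0.31, adjusted p = 0.00256). KDM4A, a histone H3 demethylase, was at 295, 308 and 234 CPM in LB EPI and 81.8, 70.6 and 35.3 CPM in MB ICM (2.16, adjusted p = 0.000685), and stayed called under all 21 alternatives. The groups of both genes were apart. The maintenance methyltransferase DNMT1 averaged 43.4 ± 4.56 CPM in LB EPI and 242 ± 259 CPM in MB ICM (SD, n = 3 each; -1.70, adjusted p = 0.143). The demethylating dioxygenase TET1 changed by 0.73 (adjusted p = 0.219). Imprinted genes were higher in 3 of 18 tested cases (NNAT, MEG3 and GNAS) and lower in none, also by limma-voom and at an unadjusted p under 0.05 (0 lower in each). MEG3, a long noncoding RNA, was at 42.7, 63.01 and 30.7 CPM in LB EPI and 0.124, 5.303 and 4.500 CPM in MB ICM (1.96, adjusted p = 0.00082). GNAS, which encodes a G protein subunit, rose by 1.17 and lost its call without replicate 1 (adjusted p = 0.0803) or 2 (0.0599).

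All but 2 of the 37 tested nuclear genes for oxidative phosphorylation had changes below 0, with a list median of -0.55, beside 0.0187 for all genes tested. Of these, 3 passed the test as lower and none as higher (20 lower and 0 higher at an unadjusted p under 0.05, and 0 higher by limma-voom). ATP5MC1, a subunit of the ATP synthase ring, was at 358, 276 and 375 CPM in LB EPI, against 742, 574 and 1388 CPM in MB ICM (-1.31, adjusted p = 0.006). Across MB ICM cells it had a median of 658 CPM and a highest value of 3798 CPM, so the replicate 5 level may lean on 1 cell. CYC1 and UQCRB, subunits of complex III, fell by 1.07 and 0.78. Across the 21 alternatives the list median ran from -0.64 to -0.32, and the lower calls from 0 to 10. ATP5MC1 lost its call without replicate 3 (adjusted p = 0.0646) or 5 (0.0853), CYC1 without 3 (0.0648) or 5 (0.149), and UQCRB without 1, 2, 3 or 5 (0.0971 to 0.188).

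Genes of glycolysis and the pentose phosphate pathway had a median change of 0.59, with 15 of 26 tested above 0. Called higher were 3 of the 26 and called lower 1, beside 3.29% and 1.81% of all genes tested. The median ran from 0.105, with averages of at least 1 cell, to 0.73 across the 21 alternatives. PGAM1, phosphoglycerate mutase, was at 2135, 4058 and 2407 CPM in LB EPI and 1036, 987 and 1225 CPM in MB ICM (1.32, SE 0.23, adjusted p = 0.00136). PGD, 6-phosphogluconate dehydrogenase, was at 2091, 1855 and 1938 CPM in LB EPI and 510.0, 738 and 1135 CPM in MB ICM (1.38, adjusted p = 0.0032). Both were higher in each LB EPI average than in any MB ICM average. Pyruvate kinase PKM rose by 0.92, while TKT, the transketolase of the pentose phosphate pathway, fell by 1.14. ENO1 (1.31, adjusted p = 0.12) and GAPDH (0.83, adjusted p = 0.0693) did not pass. PGD lost its call without replicate 2 (adjusted p = 0.0628), TKT without 1, 3 or 5 (0.087 to 0.107) and PKM without 1, 2, 3 or 5 (0.0796 to 0.147).

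For serine synthesis and amino acid transport, 1 of 23 tested genes was higher and 4 were lower, beside 3.29% and 1.81% of all genes tested. Their median was -0.07. PHGDH, the entry enzyme of serine synthesis, was at 103, 16.6 and 52.2 CPM in LB EPI, against 264, 358 and 165 CPM in MB ICM (-2.06, SE 0.44, adjusted p = 0.00849). PSAT1, the next enzyme, fell by 1.35. SLC7A5, the large neutral amino acid transporter, was at 67.4, 28.8 and 60.1 CPM in LB EPI and 245, 155 and 303 CPM in MB ICM (-1.90, adjusted p = 0.00356). The arginine transporter SLC7A3 was at 6.35, 77.2 and 22.6 CPM in LB EPI and 0, 0.492 and 0 CPM in MB ICM, and rose by 1.73. Its LB EPI averages spread widely. PHGDH lost its call without replicate 1 (adjusted p = 0.0505), SLC7A5 without 3 (0.0559) or 5 (0.0665), SLC7A3 without 1, 3 or 5 (0.0534 to 0.144), and PSAT1 when any of the 6 libraries was left out (0.0525 to 0.116). Among 31 sterol and lipid genes, 1 was lower, beside 1.81% of all genes tested. None was higher, also by limma-voom (0 higher) and at an unadjusted p under 0.05 (0 higher). The lower gene was CPT1A, the mitochondrial carnitine palmitoyltransferase (-1.40), which lost its call without 1, 2 or 3 (adjusted p from 0.0658 to 0.0935).

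Junction and polarity genes had a median of -0.32. Of 38 tested, 2 were higher and 3 lower, beside 3.29% and 1.81% of all genes tested. PRKCI, an atypical protein kinase C of the apical polarity complex, was at 483, 486 and 545 CPM in LB EPI, against 120.1, 131 and 209 CPM in MB ICM (1.74, SE 0.32, adjusted p = 0.00191), and stayed called under all 21 alternatives. AMOTL1, an angiomotin of the Hippo pathway, rose by 1.66. The claudin CLDN6 was at 892, 467 and 585 CPM in LB EPI and 1437, 1294 and 1382 CPM in MB ICM (-1.10, adjusted p = 0.00355), the desmosomal cadherin DSG2 fell by 1.42 and the cortical linker MSN by 1.16. Without replicate 5 the calls of AMOTL1 (adjusted p = 0.0665), CLDN6 (0.086), DSG2 (0.119) and MSN (0.115) were lost, as were those of CLDN6 without 3 (0.052) and of MSN without 1, 2, 3 or 4 (0.0538 to 0.181). Matrix and integrin genes were lower in 5 of 31 tested cases and higher in none at adjusted p under 0.05, with 4 higher at an unadjusted p under 0.05 and 2 higher calls by limma-voom. These were FN1, COL4A1, the fibronectin receptor subunit ITGA5 (-1.17) and the metalloproteinase inhibitors TIMP1 (-1.06) and TIMP2 (-1.51). The list median was 0.02 and -0.23 without the MB ICM average of replicate 5. ITGA5 lost its call without 1, 2 or 3 (adjusted p from 0.0585 to 0.117), TIMP1 without 1, 2, 3, 4 or 5 (0.06 to 0.168) and TIMP2 when any library was left out (0.0517 to 0.126).

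Of 43 tested cell cycle genes, 2 were higher and 1 lower, beside 3.29% and 1.81% of all genes tested, and the list median was 0.24. TOP2A, the topoisomerase of dividing cells, was at 2388, 1926 and 3065 CPM in LB EPI and 819, 634 and 1885 CPM in MB ICM (1.27, adjusted p = 0.0144). Across MB ICM cells it had a median of 722 CPM and a highest value of 6077 CPM, so the replicate 5 level may lean on 1 cell. The replication gene GINS2 rose by 1.10. CCNE1, a cyclin of S phase entry, fell by 1.37. MKI67, a marker of cycling cells, changed by -0.67 (adjusted p = 0.333). Of 34 stress and p53 genes, 2 were higher and 2 lower, beside the same shares of all genes tested. NQO1, a quinone reductase, and the mTOR inhibitor DDIT4 rose by 2.002 and 1.62. The mitochondrial superoxide dismutase SOD2 and the apoptotic gene PMAIP1 fell by 1.49 and 2.19. TOP2A lost its call without replicate 1 (adjusted p = 0.0787) or 2 (0.213), GINS2 without 2 (0.0756) or 5 (0.159), CCNE1 without 1, 2, 3 or 5 (0.0556 to 0.127), DDIT4 without 1, 3 or 5 (0.086 to 0.179), SOD2 without 3 (0.0593) and PMAIP1 without 1, 2 or 5 (0.0509 to 0.118).

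Interferon and antigen presentation genes were higher in 2 of 13 tested cases, beside 3.29% of all genes tested. These were HERC5 and B2M, the light chain of MHC class I. B2M was at 762, 868 and 1285 CPM in LB EPI and 165, 172 and 687 CPM in MB ICM (1.68, adjusted p = 0.024). It did not pass without replicate 1, 2 or 3 (0.0934 to 0.189). Across MB ICM cells B2M had a median of 142 CPM and a highest value of 1899 CPM, so the replicate 5 level may lean on 1 cell. None of the 13 genes was lower, also by limma-voom (0 lower), with 0 lower at an unadjusted p under 0.05 in limma. Of 17 tested oocyte genes, 2 were higher and 1 lower, beside 3.29% and 1.81% of all genes tested. AURKC, a kinase of meiosis, and the maternal gene NLRP14 rose by 1.95 and 1.63, and DPPA3 fell. AURKC lost its call without 1, 3 or 5 (adjusted p from 0.131 to 0.187) and NLRP14 without 1 or 5 (0.0664 and 0.199). None of 53 ribosomal protein genes changed by limma, with 2 higher and 0 lower at an unadjusted p under 0.05 and none called by limma-voom. Their median was 0.09.

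X-linked genes were called higher in 25 and lower in 7 of 424 tested, and autosomal genes in 375 and 215 of 11617. The medians were 0.0499 for X-linked and 0.0193 for autosomal genes. XIST, the RNA that coats the inactive X, was at 131, 2.78 and 2.54 CPM in LB EPI and 14.7, 364 and 73.1 CPM in MB ICM. The averages differed widely inside each class and the groups overlapped. Its change of -1.69 (SE 1.22, adjusted p = 0.561) did not pass, and the sex of the cells is not labelled. None of 11 tested genes of X inactivation was called by limma, with 3 higher and 0 lower at an unadjusted p under 0.05 and 1 higher by limma-voom.

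Markers of other cell types that the samples could hold were summed per list. The 15 cumulus and granulosa genes came to 83.3 to 218 CPM in LB EPI and 40.9 to 130 CPM in MB ICM, with AMH and PTX3 at 0 in every average and the other 13 genes detected in at least 1. The highest was NR5A2, a nuclear receptor that mouse embryonic stem cells also express, at 36.2, 75.9 and 97.2 CPM in LB EPI and 4.27, 13.3 and 80.1 CPM in MB ICM (adjusted p = 0.16). Across MB ICM cells NR5A2 had a median of 0 CPM and a highest value of 379.8 CPM. Its MB ICM level in replicate 5 may therefore lean on 1 cell with few reads. HSD3B1, a steroid dehydrogenase, reached 16.5 CPM in LB EPI and 25.6 CPM in MB ICM, and INHBA, an inhibin subunit, 12.7 CPM in LB EPI and 28.1 CPM in MB ICM. VCAN reached 11.7 CPM in LB EPI and 37.6 CPM in MB ICM, and TNFAIP6 80.3 CPM in LB EPI and 5.95 CPM in MB ICM. The part of these genes in the differences between the classes was not tested. In this list 1 gene of 11 tested was higher, TNFAIP6, which forms hyaluronan matrix (1.51, adjusted p = 0.0158). It was at 11.8, 12.3 and 80.3 CPM in LB EPI and 0, 2.45 and 5.95 CPM in MB ICM. It did not pass without replicate 1 (adjusted p = 0.0879) or 5 (0.108). The 10 blood genes summed to 6.39 to 93.2 CPM in LB EPI and 14.3 to 33.1 CPM in MB ICM, with LYZ at 0 throughout. The 6 sperm genes summed to 17.7 to 25.6 CPM in LB EPI and 18.1 to 67.6 CPM in MB ICM. Fibroblast genes, 11 in number, summed to 236 to 339 CPM in LB EPI and 150 to 800 CPM in MB ICM, the highest in replicate 2, where COL1A1 was at 348 CPM. Only 3 blood, 2 sperm and 9 fibroblast genes reached the level needed for testing. None of them passed the test in limma or limma-voom, with 0 at an unadjusted p under 0.05 in limma.

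The same days were compared in the trophectoderm, in the same fit. LB TE against MB TE had 24 called genes (0.191%), of which 20 were higher and 4 lower. The difference between both changes, LB EPI minus MB ICM less LB TE minus MB TE, passed for 46 genes (0.367%), with 19 above 0 (0.152%) and 27 below 0 (0.215%). Of these 46 genes, 38 were also called in the inner cells, 19 higher and 19 lower. Called in both cell types in the same direction were 2 genes, NQO1 and PPP1R14A, the second named after its values were seen. NQO1 was at 25.4 and 78.1 CPM in LB TE and 2.23, 1.24 and 1.07 CPM in MB TE, a change of 2.13 (adjusted p = 0.0423).

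For 19 of the genes described here the difference itself passed. LRRC3 was at 6.29 and 16.7 CPM in LB TE and 1.58, 3.88 and 13.8 CPM in MB TE, so that the inner cell change exceeded that of trophectoderm by 3.91 (SE 0.51, adjusted p = 0.000972). ERAS exceeded it by 3.78 (adjusted p = 0.00329) and TDGF1 by 3.56 (adjusted p = 0.0385). FOLR1 in trophectoderm was at 844 and 1027 CPM in LB TE and 1078, 918 and 797 CPM in MB TE. Its difference was -2.87 (SE 0.43, adjusted p = 0.00232). MPZL2 was at 194 and 262 CPM in LB TE and 300.2, 186 and 326 CPM in MB TE, with a difference of -2.95 (adjusted p = 0.00194). For NANOG the difference of 1.52 did not pass (adjusted p = 0.231), nor did that of DNMT3B (2.73, adjusted p = 0.161), GATA6 (-1.37, adjusted p = 0.29) or DPPA3 (-0.91, adjusted p = 0.644). The count of 46 moved with the libraries: it was 11, 13, 0, 32, 10 and 49 without replicates 1, 2, 3, 4, 5 and 6, and without replicate 3 or 5 only 1 LB TE average is left (770 genes at an unadjusted p under 0.05 without replicate 3).

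**Figure D4:**
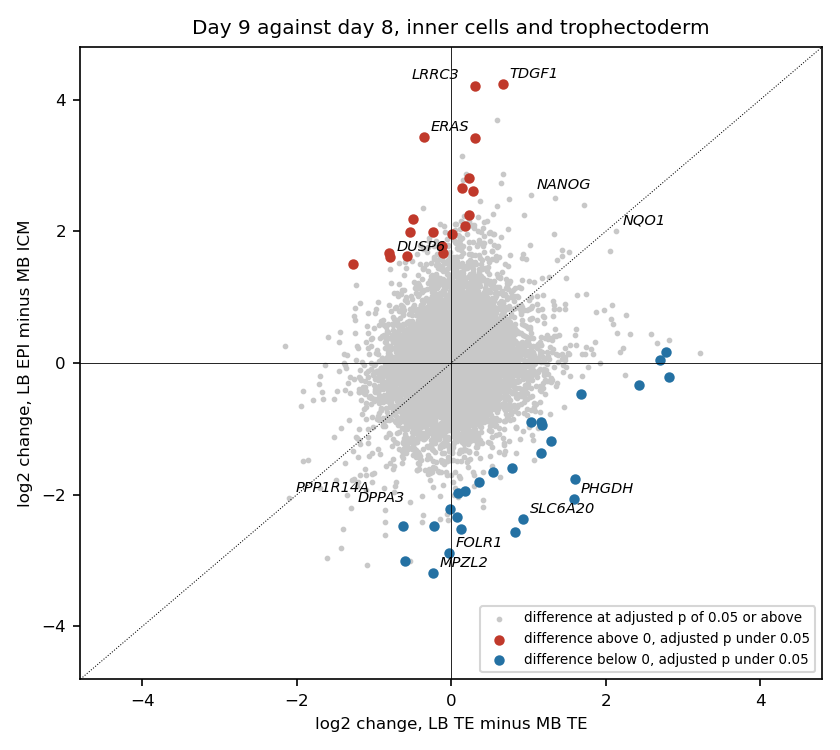
Each point is a gene, with its log2 change in trophectoderm (LB TE minus MB TE) across and in inner cells (LB EPI minus MB ICM) up. Red and blue points are the genes whose 2 changes differed at an adjusted p under 0.05. LRRC3 lies at 4.21 up and 0.30 across, and FOLR1 at -2.89 up and -0.02 across.

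Single cells showed how evenly these changes ran through the classes. TDGF1 had a read in all 45 LB EPI cells, with a median of 695 CPM (162 to 1268), and in 29 of 51 MB ICM cells, with a median of 15.2 CPM (0 to 231). After every cell was thinned to 20000 reads, which left out 2 LB EPI and 4 MB ICM cells, TDGF1 had a read in 43 of 43 LB EPI and 24 of 47 MB ICM cells. In LB TE the thinned share was 10 of 31, and before thinning 29 of 31 cells had a TDGF1 read (median 22.4 CPM). The lowest LB EPI cell lay below the highest MB ICM cell, and the medians were far apart. LRRC3 had a read in 39 of 43 thinned LB EPI cells and 2 of 47 MB ICM cells, beside 5 of 31 LB TE cells. The MB ICM share of LRRC3 lay below that of LB TE.

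NANOG had a median of 885 CPM in LB EPI cells (126 to 2564) and 74.3 CPM in MB ICM cells (0 to 740). Thinned, 43 of 43 LB EPI and 30 of 47 MB ICM cells had a NANOG read, beside 16 of 31 LB TE cells. SOX2 had medians of 184 CPM in LB EPI and 90.4 CPM in MB ICM cells, and thinned shares of 41 of 43 LB EPI and 32 of 47 MB ICM cells, with 2 of 31 in LB TE. DPPA3 had medians of 22.5 CPM in LB EPI and 194 CPM in MB ICM cells. FN1 had medians of 445 CPM in LB EPI cells (205 to 2618) and 3200 CPM in MB ICM cells (248 to 8949), so the ranges of the classes overlapped in single cells though not in library averages. After thinning, 29 of 47 MB ICM cells had reads of NANOG and GATA6, 1 of NANOG alone, 15 of GATA6 alone and 2 of neither. Among LB EPI cells 18 of 43 had both and 25 NANOG alone. GATA6 had a read in 25 of 31 thinned LB TE cells, beside 16 of 31 for NANOG, so reads of both in a cell are a description of detection and were not tested as joint expression.

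**Figure D5:**
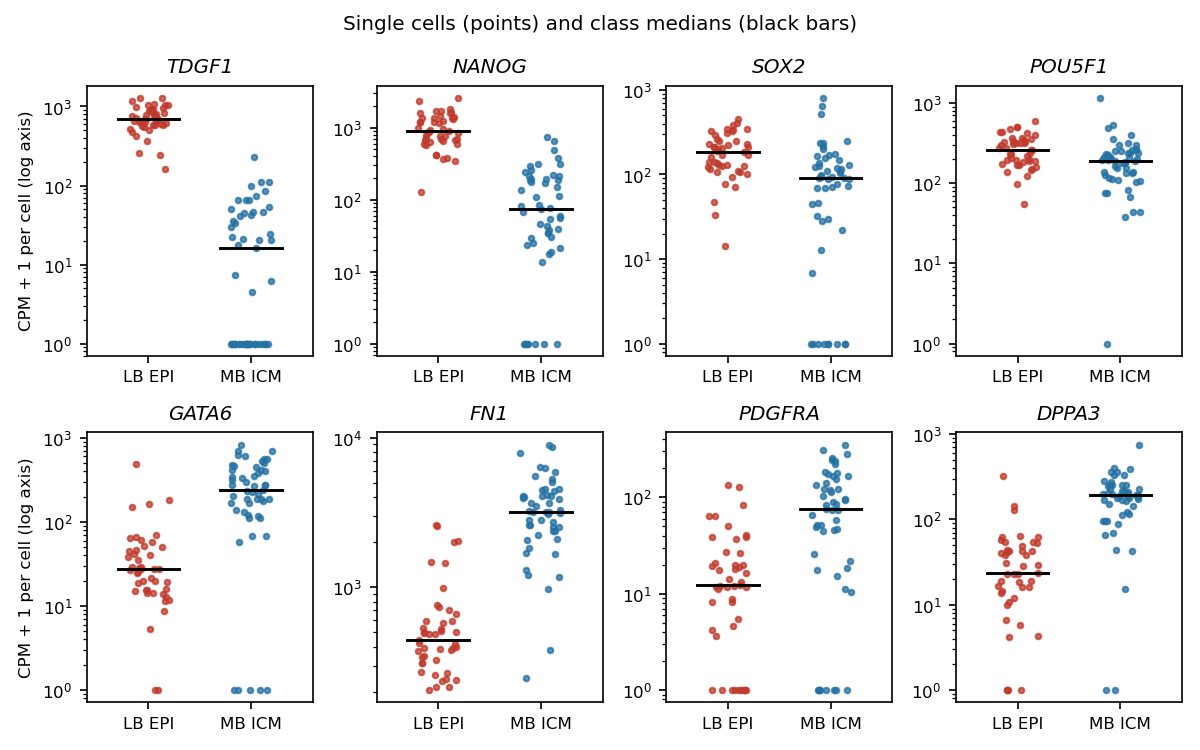
CPM + 1 per cell on a log axis, with LB EPI cells (45) left and MB ICM cells (51) right in each panel, and the class median as a black bar. The TDGF1 medians are 695 CPM in LB EPI and 15.2 CPM in MB ICM, and the FN1 medians 445 CPM in LB EPI and 3200 CPM in MB ICM.

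Summed over their lists, pluripotency genes came to a median of 4318 CPM per LB EPI cell (2175 to 6930) and 2207 CPM per MB ICM cell (891 to 4558). Hypoblast genes came to 2711 CPM per LB EPI cell (1386 to 7763) and 8185 CPM per MB ICM cell (3038 to 17561). No MB ICM cell reached as low as the median LB EPI cell in the hypoblast sum. Across cells, Spearman's rho between the 2 sums was -0.18 in 45 LB EPI cells and 0.20 in 51 MB ICM cells, as a description, since cells of a library share their depth and handling.

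The lone cells that entered no average were read as single values. The LB EPI cell of replicate 1 had 133815 reads, with TDGF1 at 254 CPM, NANOG at 1151 CPM and FN1 at 2018 CPM. The MB ICM cell of replicate 3 had 103694 reads, with TDGF1 at 19.3 CPM, NANOG at 57.9 CPM and FN1 at 8949 CPM. DNMT3B went the other way in these cells, at 74.7 CPM in the LB EPI cell and 453 CPM in the MB ICM cell. Other called genes also went the other way here, among them NNAT, IQGAP2, DNMT3A, PGAM1, PKM, TOP2A, GNAS, JAK1, CCNE1, ATP5MC1, UQCRB and TKT. When averages of at least 1 cell were allowed, which lets lone cells stand for libraries, 122 genes were higher and 65 lower.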

How the data were processed

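Values came from 6 wildtype libraries, and the remaining libraries of the series were not used here. Tools named in the submitters' processing notes are Seurat, featureCounts, HISAT2 and Trim Galore (no versions), with the build ARS-UCD1.2. The deposited table is on a natural log scale, ln(1 + x) with x per 10000 of a cell's total, and covers 18825 genes. It holds 286 of the 288 cells that the cell table lists, and 51 of 53 MB ICM cells. Undone, each cell summed to 10000 and 100% of values were whole reads within 0.1 reads, which gave each cell's depth. Nothing used here states the cell filters or any counting of molecular identifiers, so intervals cover counting error only.

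CPM were averaged per library and class (at least 3 cells) and fitted as log2(CPM + 10) with limma 3.58.1 in R 4.3.3 (trend and robust options, statmod 1.5.0) over all 7 classes. The library was a random block, because a library holds cells of several classes, and averages of a library deviated together (consensus correlation 0.18). Genes were tested if at least 1 average reached 10 CPM. Files were read with data.table (1.17.8). Cells were thinned with numpy 2.4.6 (seed 1), tables were handled with pandas 2.3.3 and figures drawn with matplotlib 3.10.9. The fit was tested on simulated data.

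The comparison, its 25 gene lists (751 entries, 712 distinct genes, 677 in the table) and the always-named genes were chosen with earlier results of these data known. Of the called genes that carry a symbol and moved the same way in both shared libraries, the 15 largest rises and 15 largest falls were named, as were each list's 4 lowest adjusted p and a set of marker genes. Called list members beyond these, and uncalled members given beside them, were named after their values were seen. RefSeq gene records of ARS-UCD2.0, a later build than the authors', served to tell X-linked from autosomal genes, matched 96% of tested genes and gave no coordinates. Alternatives covered the pseudocount, the filter, cells per average, scaling, the block, depth, the classes averaged and each library left out. Of the hypoblast list, 1 called gene is not reported here.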

Additional observations from a re-analysis of the deposited data

Results flagged for a closer look

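Among the genes described above, 19 changed between day 8 and day 9 by a different amount in the inner cells (LB EPI minus MB ICM) than in trophectoderm (LB TE minus MB TE), by the limma contrast of both changes at an adjusted p under 0.05. The share of all tested genes that passed was 0.367%. For 9 genes the difference was above 0. It was 3.91 on the log2 scale for LRRC3, 3.78 for ERAS, 3.56 for TDGF1, 3.11 for ICOSLG, 2.59 for PPP2R2B, 2.52 for MME, 2.40 for DUSP6, 2.32 for ADGRV1 and 2.20 for TCF7L1. DUSP6 changed by 1.61 in inner cells and -0.79 in trophectoderm, where it did not pass the test.

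For the other 10 genes the difference was below 0. The matrix and adhesion genes FN1, FLRT3 and MPZL2 differed by -1.85, -2.65 and -2.95, and the receptors PDGFRA and FOLR1 by -2.20 and -2.87. IQGAP2 differed by -2.25, and the ectoenzyme CD38 by -3.39. The transporters SLC1A3 and SLC6A20 differed by -2.40 and -3.31. PHGDH, the serine synthesis enzyme, had the most negative difference of these, -3.66, with changes of -2.06 in inner cells and 1.59 in trophectoderm. All 19 kept their sign under each alternative run. Without replicate 3 or 5, either of which leaves 1 LB TE average assumed to vary like the other groups, 0 and 6 of the 19 passed in limma, and without replicates 1, 2, 4 and 6 the numbers were 8, 8, 12 and 18. With LB EPI and LB PE averaged together 2 passed, without a filter on low values 5, with averages of at least 1 cell 5, with at least 5 cells 6, with a pseudocount of 1 again 6, and with no replicate block 7. In the other 9 alternatives 14 to 19 passed.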

How the results depend on the processing

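Counts are given as genes higher in LB EPI, genes lower in LB EPI and genes whose change differed from trophectoderm, against 413, 227 and 46 as reported. Of these, the counts that moved by more than 1.5 times were the following. A pseudocount of 1 or 50 gave 11 or 86 differing genes. Without a filter on low values 123 were lower and 10 differed. With at least 5 cells per average 13 differed, and with at least 1 cell 122 were higher, 65 lower and 10 differed. The mean over cells of log2 values gave 826 higher and 155 differing. Fitting only the classes compared gave 103 differing. No replicate block gave 13 differing (306 higher and 155 lower), and the library as a fixed replicate block, which compares within shared libraries, 265 higher and 136 lower. Cells with at least 50000 reads gave 369 lower and 115 differing, limma-voom on summed reads 531 lower and 122 differing, and LB EPI averaged with LB PE 194 higher, 36 lower and 5 differing. Leaving out each library gave 196 to 386 higher, 100 to 218 lower and 0 to 49 differing. Without the MB ICM average of replicate 5, an alternative chosen after seeing the data, 275 were higher, 189 lower and 54 differed. The causes were not tested. The planned count test was not run. The deposited values are natural logs, and limma-voom on the recovered reads took its place.

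Of 101 called genes examined under 21 alternatives, 98 kept their direction and 20 stayed called throughout. With LB EPI averaged with LB PE, KLB (0.57), RSPO3 (0.64) and S100A10 (0.078) reversed, as did the uncalled GATA4 (0.51), KRT8 (0.42) and KRT18 (0.0828). With cells of at least 50000 reads KRT8 was 0.0394 and KRT18 0.0032, and with each library left out KRT8 ran from -0.3445 without replicate 3 to 0.0683 without replicate 2. LB EPI cells were deeper than MB ICM cells, 3 averages per class and 5 cells in the smallest limit what could be called, and low genes such as NODAL, FGF4 and GATA4 were near the detection limit.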
